A study of Rattus norvegicus with 6 samples.

Results

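The genes described here are enzymes that remove superoxide and peroxides, the stress-inducible enzymes that act beside them, and a metallothionein. The list named 10 genes, and they were read from the array by matching the RefSeq accession of each row to the rat RefSeq gene table. The superoxide dismutases *Sod1*, *Sod2* and *Sod3*, catalase (*Cat*), the glutathione peroxidases *Gpx1* and *Gpx3*, *Hmox1*, *Nqo1* and *Txnrd1* each had 1 row. *Mt2A* had no matched row and was not analysed here. The 9 measured genes stand among 9627 named genes and 26299 features in all, where rows of the same symbol were averaged and rows without a symbol were kept as they were.

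Skeletal muscle RNA of 3 lower birth weight (LBW) and 3 average birth weight (ABW) rat pups was hybridized to single-colour arrays, 1 array per pup. All pups were untreated 1-day-old male Wistar rats, and RNA came from soleus and gastrocnemius pooled within a pup, so that the signal is that of whole muscle with its vessels, nerves, blood and connective tissue. LBW pups were from percentiles 5 to 25 of birth weight. The protocol text gives percentiles 50 to 75 for ABW pups, while their sample characteristics give 25 to 75. The labels call the 3 samples of a group biological replicates, and litters are not given.

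Superoxide dismutases convert superoxide to hydrogen peroxide, in the cytosol (*Sod1*), in mitochondria (*Sod2*) and outside the cell (*Sod3*). Hydrogen peroxide is then removed by catalase in peroxisomes and by glutathione peroxidases, of which *Gpx1* acts inside the cell and *Gpx3* is secreted. The transcription factor Nrf2, encoded by *Nfe2l2* and held back by Keap1, raises *Hmox1*, *Nqo1* and *Txnrd1* under oxidative or electrophilic stress. Metallothioneins are small cysteine-rich proteins that bind zinc and copper, and their genes respond to metals through the factor Mtf1. Working muscle forms superoxide and peroxides, and birth brings a steep rise in oxygen.

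The deposited values are on the log2 scale, so that a difference of 1 is a doubling of signal. Over the 6 arrays their medians lay between 8.70 and 8.76 and single values between 4.58 and 15.49. No detection call comes with them, so that the distance of dim signals from background cannot be read. A change was called at an unadjusted limma p under 0.05 with a fold change of at least 1.5, a threshold chosen after the methods of the publication. At this threshold 1124 of 26299 features (4.27%) were called, 627 higher (2.38%) and 497 lower (1.89%) in LBW pups. After Benjamini-Hochberg adjustment over all features, 0 (0%) had an adjusted p under 0.05 by limma, 3250 (12.4%) had an unadjusted p under 0.05, and the smallest adjusted p was 0.214. The methods' t-test also gave 0 after adjustment. Without LBW 2, however, 125 of 26299 features had an adjusted p under 0.05 by limma, compared to 0 without any other single pup. At so small a share, few or none of 9 genes would be among them, and none was. Among them were 5 bone and 3 neutrophil markers, and LBW 2 was the LBW pup with the lowest mean of bone markers. Of 13 skeletal muscle markers with a row (17 listed), 0 were called, and *Acta1*, the actin of skeletal muscle fibres, lay between 15.15 and 15.41. Single markers varied more, as *Actn3* of fast fibres lay between 12.10 (LBW 3) and 13.23 (LBW 2) and *Myh7* of slow fibres between 12.49 (ABW 2) and 13.54 (LBW 3), and *Des* was higher in LBW pups without overlap (log2 fold change 0.22). Of the bone markers, 5 were called, all of them higher in LBW pups. The 10 bone markers with a row lay on average 2.86, 0.47 and 3.74 above the ABW mean in LBW 1, LBW 2 and LBW 3 (log2 differences), compared to -0.12, -0.03 and 0.15 in ABW 1, ABW 2 and ABW 3.

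Of the 9 genes, *Gpx3* rose in LBW muscle and no other passed the threshold. This is 1 of 9 called, against 4.27% of all features, and 0 of 9 after adjustment. The median log2 fold change of the 9 genes was 0.05, compared to -0.02 over all features, with 6 genes higher and 3 lower in LBW. For the other 8 genes, the 95% interval of the log2 fold change lay wholly within a 1.5-fold change in either direction, as it did for 66.6% of all features. LBW and ABW values did not overlap for 3 genes, *Gpx3* above and *Cat* and *Gpx1* below, against 17.4% of all features (7.27% above and 10.1% below).

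**Figure D1:**
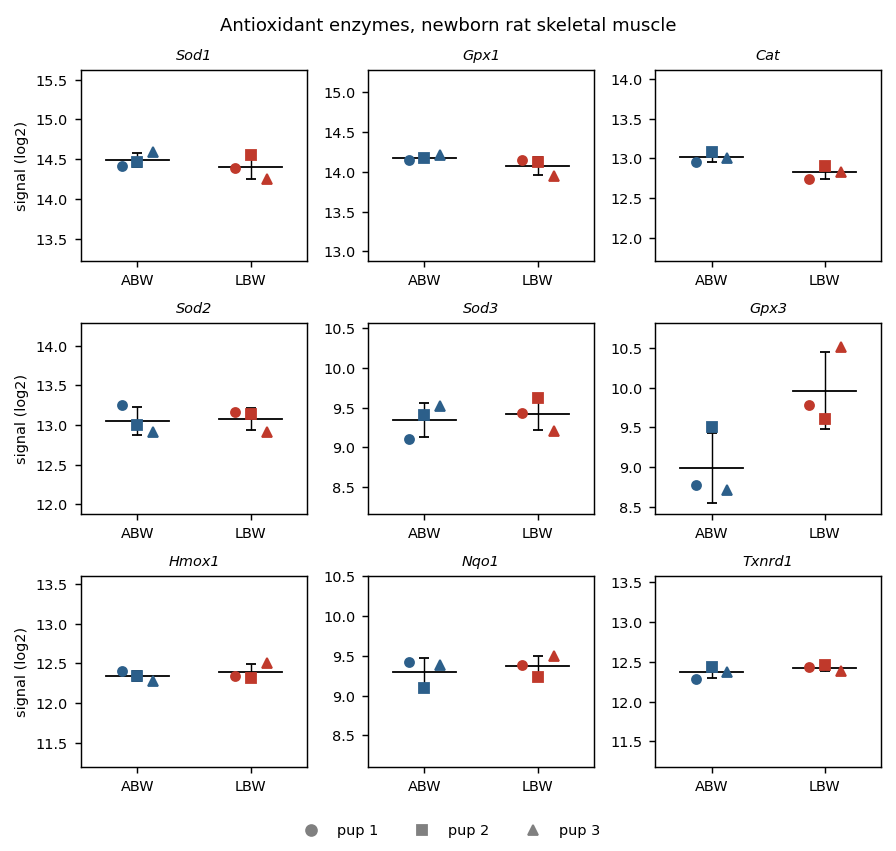
Signal of the 9 genes (log2) in each of 3 ABW and 3 LBW pups, with horizontal lines at group means and bars of 1 SD. Symbols give pup numbers within a group, which were not used to pair pups. Every panel spans the same number of log2 units. *Gpx3* separates the groups most, from 8.71 to 9.50 in ABW and from 9.60 to 10.51 in LBW pups, while *Sod1*, *Sod2*, *Hmox1*, *Nqo1* and *Txnrd1* overlap.

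Among the secreted enzymes, *Gpx3* (NM_022525), the glutathione peroxidase of plasma, was at 9.78, 9.60 and 10.51 in LBW 1, 2 and 3 and at 8.77, 9.50 and 8.71 in ABW 1, 2 and 3. All 3 LBW pups lay above all 3 ABW pups, but LBW 2 and ABW 2 differed by only 0.101, and LBW 3 stood highest. It averaged 9.963 ± 0.48 (SD, n = 3) among LBW and 8.995 ± 0.44 (SD, n = 3) among ABW pups, a log2 fold change of 0.97 (standard error 0.30, limma adjusted p = 0.315). This is a fold change of 1.96, with a 95% interval from 1.18 to 3.25. An exact permutation test of the 6 values gave a 2-sided p of 0.1, the smallest that 3 pups against 3 allow. The call was lost without ABW 1 (0.86, limma adjusted p = 0.394) or without ABW 3 (0.83, limma adjusted p = 0.657), where the unadjusted p was above 0.05, and also by the methods' t-test.

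*Sod3* (NM_012880), the secreted superoxide dismutase held at the cell surface and in the matrix, was at 9.43, 9.62 and 9.21 in LBW 1, 2 and 3 and at 9.10, 9.40 and 9.52 in ABW 1, 2 and 3. The groups overlapped widely, and the log2 fold change was 0.08 (95% interval from -0.29 to 0.45, adjusted p = 0.869 by limma). The difference between the secreted enzymes was not tested.

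Several bone and neutrophil markers were also called higher in LBW pups. Of 10 bone markers with a row (13 listed), 5 were called and all 5 were higher, against 2.38% of all features called higher. The summed signal of the 10 on the linear scale ran from 35631 to 92840 in LBW and from 35593 to 40903 in ABW pups. The brightest gene weighs most in such a sum, here *Col1a2* with a mean of 14.98 in LBW and 15.15 in ABW pups. Log2 fold changes of the 10 ran from -0.17 (*Col1a2*) to 5.02 (*Spp1*, a phosphoprotein of bone matrix). *Spp1* was at 13.03, 9.78 and 14.24 in LBW 1, 2 and 3. Of 6 neutrophil markers with a row (12 listed), 3 were called higher, *S100a8*, *S100a9* and *Mmp8*. *Lcn2* (0.12), *Prtn3* (-0.07) and *Cebpe* (-0.09, log2 fold changes) overlapped between the groups. The summed signal of the 6 ran from 7467 to 13819 in LBW and from 5121 to 5679 in ABW pups. *Lcn2* had the highest mean of the 6, at 12.04 in LBW and 11.91 in ABW pups. Adipocytes also make *Gpx3*. Of 11 adipocyte markers with a row (12 listed), 2 were called, *Lep* and *Pparg*, both lower in LBW, against 1.89% of all features called lower. The study lists both as downregulated in these same samples. The summed signal of the 11 ran from 38597 to 52460 in LBW and from 50355 to 74268 in ABW pups. *Fabp4* was the brightest of them, with a mean of 14.73 in LBW and 14.92 in ABW pups. No marker can be at 0 on this scale. The part of these tissues in the *Gpx3* difference was not tested. In whole muscle, a different number of cells of a type and a different amount of RNA per cell cannot be told apart.

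Over the 6 arrays, the 3 named genes whose pattern was most like that of *Gpx3* were *Scaf1*, *Rasgrp1* and *Cactin*, with Pearson correlations of 0.9887, 0.9871 and 0.9853 among 9626 genes compared. These are given as a description, since all points share the same arrays. Of them, *Rasgrp1* (NM_019211) was called, with a log2 fold change of 0.78 (standard error 0.22, limma adjusted p = 0.302).

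Inside the cell, none of the constitutive enzymes passed the threshold. *Sod1* (NM_017050), the copper and zinc dismutase of the cytosol, was at 14.39, 14.55 and 14.25 in LBW 1, 2 and 3 and at 14.41, 14.47 and 14.59 in ABW 1, 2 and 3. LBW 3 was the lowest pup, and LBW 2 lay above ABW 1 and ABW 2. The difference was -0.09 on the log2 scale (standard error 0.11, limma adjusted p = 0.768), and its 95% interval, from -0.35 to 0.17, corresponds to a fold change between 0.782 and 1.12.

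*Cat* (NM_012520), the catalase of peroxisomes, was at 12.74, 12.90 and 12.83 in LBW 1, 2 and 3 and at 12.96, 13.08 and 13.00 in ABW 1, 2 and 3. All 3 LBW pups lay below all 3 ABW pups, with a gap of 0.057 between the nearest pups. The log2 fold change of -0.19 (standard error 0.09, limma adjusted p = 0.448) was a fold change of 0.878, with a 95% interval from 0.759 to 1.02, and the exact permutation test gave a 2-sided p of 0.1.

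*Gpx1* (NM_030826), the intracellular glutathione peroxidase of cytosol and mitochondria, was at 14.15, 14.13 and 13.95 in LBW 1, 2 and 3 and at 14.15, 14.17 and 14.21 in ABW 1, 2 and 3. The groups did not overlap, but the nearest pups, LBW 1 and ABW 1, differed by 0.003, and LBW 3 alone lay clearly apart. LBW minus ABW came to -0.10 on the log2 scale (standard error 0.09, limma adjusted p = 0.700), and the 95% interval of the fold change ran from 0.802 to 1.09.

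*Sod2* (NM_017051), the manganese dismutase of the mitochondrial matrix, was at 13.16, 13.14 and 12.91 in LBW 1, 2 and 3 and at 13.25, 13.00 and 12.91 in ABW 1, 2 and 3. The values of the groups covered nearly the same range. Its log2 fold change of 0.02 (standard error 0.13, limma adjusted p = 0.971) had a 95% interval from -0.29 to 0.32, and its sign depended on which pup was left out. Set beside each other without a test, the cytosolic and peroxisomal enzymes (*Sod1*, *Gpx1*, *Txnrd1* and *Cat*) had a median log2 fold change of -0.10 and the mitochondrial dismutase 0.02.

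Red blood cells carry much *Sod1*, *Cat* and *Gpx1*. Of the 5 erythroid markers with a row (12 listed), 0 were called, against 4.27% of all features. *Hbb*, the beta chain of hemoglobin, was between 15.13 and 15.27 in LBW and between 15.18 and 15.30 in ABW pups. The summed signal of the 5 markers ran from 39448 to 41757 in LBW and from 40476 to 44602 in ABW pups. *Hbb* made up most of this sum and lay near the top of the scale, so the sum says little about the other markers. Their log2 fold changes ran from -0.87 (*Slc4a1*, standard error 0.41, limma adjusted p = 0.454) to 0.09 (*Rhag*). Of the 5 markers, 2 were higher and 3 lower in LBW pups. The mean of the 5 markers differed more between pups than between groups, at -0.36, 0.45 and -0.66 relative to the ABW mean in LBW 1, 2 and 3 and at 0.22, 0.09 and -0.31 in ABW 1, 2 and 3. LBW 3, the pup with the lowest *Sod1* and *Gpx1*, was also the lowest in these markers, while *Cat* was lowest in LBW 1 (12.74). ABW 3, the lowest ABW pup in these markers, had the highest *Sod1* (14.59) and *Gpx1* (14.21) of all pups. The part of red cells in the signals of the enzymes was not tested.

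**Figure D2:**
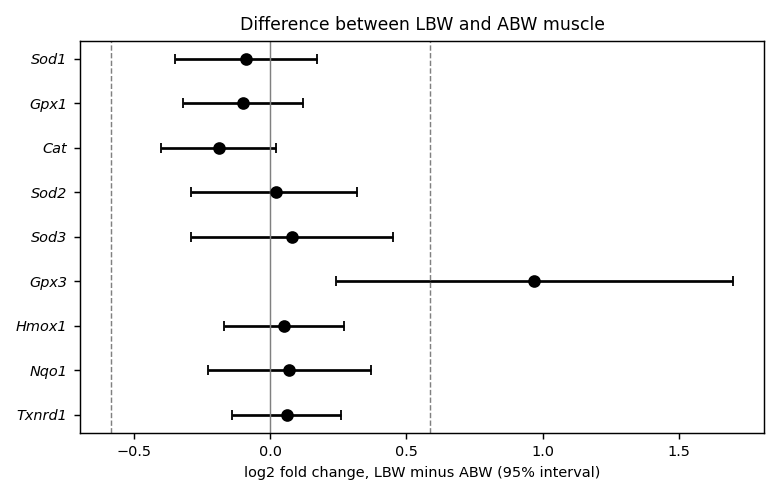
Log2 fold change of LBW over ABW pups for the 9 genes, with points at the limma estimate (n = 3 per group) and bars for the unadjusted 95% interval. Dashed lines mark a 1.5-fold change in either direction. *Gpx3* is at 0.97 with an interval from 0.24 to 1.70, and the intervals of the other 8 genes lie between the dashed lines and include 0.

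None of the Nrf2-inducible enzymes passed the threshold. *Hmox1* (NM_012580), the inducible heme oxygenase, was at 12.34, 12.32 and 12.51 in LBW 1, 2 and 3 and at 12.40, 12.34 and 12.28 in ABW 1, 2 and 3. LBW 3 was the highest pup and the other LBW pups lay within the ABW values. The log2 fold change was 0.05 (standard error 0.09, limma adjusted p = 0.861), and the fold change had a 95% interval from 0.889 to 1.21. Macrophages that clear red cells carry *Hmox1*, and of 9 macrophage markers with a row (12 listed) 0 were called, against 4.27% of all features.

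*Nqo1* (NM_017000), a quinone reductase, was at 9.38, 9.23 and 9.50 in LBW 1, 2 and 3 and at 9.42, 9.10 and 9.38 in ABW 1, 2 and 3. In both groups pup 2 was the lowest, and the groups overlapped. The difference was 0.07 on the log2 scale (standard error 0.13, limma adjusted p = 0.853), with a 95% interval from -0.23 to 0.37.

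*Txnrd1* (NM_031614), the cytosolic thioredoxin reductase, was at 12.43, 12.46 and 12.38 in LBW 1, 2 and 3 and at 12.29, 12.44 and 12.37 in ABW 1, 2 and 3. Its pups lay close together, with an SD of 0.04 in LBW and 0.07 in ABW pups. The difference was 0.06 on the log2 scale (standard error 0.08, limma adjusted p = 0.823), and the 95% interval of the fold change ran from 0.905 to 1.20. The 3 measured inducible genes had log2 fold changes from 0.05 to 0.07, and their mean lay 0.05, 0.00 and 0.13 above the ABW mean in LBW 1, 2 and 3.

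The regulators of these genes were read beside them. *Nfe2l2* (NM_031789), which encodes Nrf2, was at 11.38, 11.36 and 11.52 in LBW 1, 2 and 3 and at 11.63, 11.83 and 11.76 in ABW 1, 2 and 3. All 3 LBW pups lay below all 3 ABW pups. Its log2 fold change of -0.32 (standard error 0.10, limma adjusted p = 0.305) had an unadjusted p under 0.05 but fell short of the 1.5-fold criterion. *Keap1* (NM_057152), the adaptor that directs Nrf2 to degradation, averaged 8.62 ± 0.12 (SD, n = 3) among LBW and 8.66 ± 0.24 (SD, n = 3) among ABW pups. Its log2 fold change was -0.03 (adjusted p = 0.943 by limma), with a sign that depended on the pup left out. *Mtf1* had no matched row and was not analysed here.

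In the absence of a row for *Mt2A*, metallothioneins were represented by *Mt1* and *Mt3*. *Mt3* (NM_053968), a metallothionein best known from brain, was at 9.33, 8.81 and 9.29 in LBW 1, 2 and 3 and at 8.37, 7.51 and 7.70 in ABW 1, 2 and 3. It rose in LBW pups, and the groups were separated by 0.448. LBW exceeded ABW pups by 1.28 on the log2 scale (standard error 0.25, limma adjusted p = 0.244), with a fold change of 2.44. *Mt3* is among the genes the study lists as upregulated in these same samples, so its direction is not independent evidence. Leaving out any single pup kept the call, with values between 1.11 and 1.54. *Mt1* (NM_138826), the widely expressed zinc-binding form, was at 11.80, 12.13 and 12.52 in LBW 1, 2 and 3 and at 11.93, 11.75 and 11.57 in ABW 1, 2 and 3. LBW 1 lay among the ABW pups, and the log2 fold change of 0.40 (standard error 0.20, limma adjusted p = 0.465) did not pass and lay between 0.22 and 0.58 without any 1 pup. The 5 bone and 3 neutrophil markers called above also lay higher in all LBW pups, as did 7.27% of all features. These markers were picked as called in the same comparison, and their part in the *Mt3* difference was not tested.

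The stretches before the start sites of *Gpx3*, *Mt1* and *Mt3* are shown because *Gpx3* is the enzyme that was called and the other two are the metallothioneins that were measured. They are the 250 bases before the start of each gene in RefSeq (assembly GRCr8), 5′ to 3′ on the strand of the gene. *Gpx3* lies on the plus strand (chr10:39529085-39529334), and *Mt1* (chr19:10832976-10833225) and *Mt3* (chr19:10856081-10856330) lie on the minus strand. The array follows another build, so these coordinates are those of GRCr8 only. Capitals mark matches on either strand to the core of the antioxidant response element bound by Nrf2 (TGACNNNGC) or to the core of the metal response element bound by Mtf1 (TGCACNC or TGCGCNC).
Gpx3: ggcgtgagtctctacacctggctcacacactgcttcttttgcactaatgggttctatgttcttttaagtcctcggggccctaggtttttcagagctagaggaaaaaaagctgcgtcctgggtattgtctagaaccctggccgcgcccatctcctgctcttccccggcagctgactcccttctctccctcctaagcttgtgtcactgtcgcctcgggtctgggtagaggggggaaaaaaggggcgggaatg
Mt1: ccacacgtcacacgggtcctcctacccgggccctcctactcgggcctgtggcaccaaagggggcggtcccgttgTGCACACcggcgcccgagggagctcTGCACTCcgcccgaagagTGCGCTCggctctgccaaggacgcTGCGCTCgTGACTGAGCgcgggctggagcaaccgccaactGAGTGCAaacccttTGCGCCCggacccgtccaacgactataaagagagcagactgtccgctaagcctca
Mt3: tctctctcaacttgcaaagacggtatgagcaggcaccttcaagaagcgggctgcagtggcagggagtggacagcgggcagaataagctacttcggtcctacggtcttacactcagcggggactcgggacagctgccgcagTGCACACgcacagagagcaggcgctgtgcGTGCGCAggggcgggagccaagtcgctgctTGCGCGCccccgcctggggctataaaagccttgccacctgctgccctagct

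These letters of the metal response element occurred 6 times before *Mt1*, 3 times before *Mt3* and 0 times before *Gpx3*, and at least once in 20.6% of 33469 promoters of the same length. *Mt2A*, which has a promoter in the table, held 4 matches, a number reached by 0.266% of promoters. The antioxidant response element core was found once (1 match) before *Mt1*, *Mt2A* and *Sod2* and before 1 of 2 starts of *Txnrd1*, and in 10.1% of all promoters. The other members with a promoter in the table, *Sod1*, *Cat*, *Gpx1*, *Gpx3* and *Nqo1*, held 0 matches to either core in this window. Of the 10 listed genes, 8 had a promoter there. Matches to the different cores did not overlap in the 3 stretches shown (0 overlaps). A match describes letters only.

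Around these genes, 101 further genes with a row were grouped in 6 lists by role. Of them, 1 was called higher and 5 lower in LBW pups, 5.94% in all against 4.27% of all features, and 0 had an adjusted p under 0.05 by limma (15 had an unadjusted p under 0.05, and the methods' t-test gave 0 after adjustment over all features). Their median log2 fold change was -0.06, compared to -0.02 over all features.

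**Figure D3:**
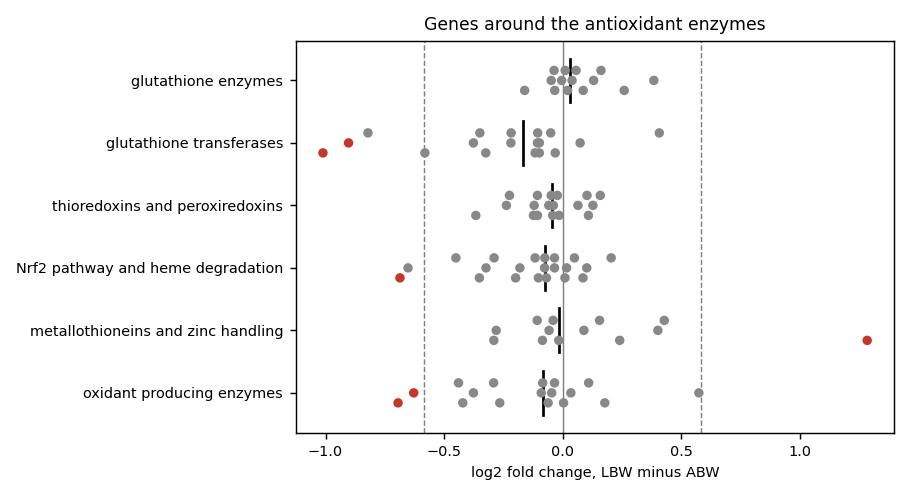
Log2 fold change of LBW over ABW pups for each gene with a row in 6 lists of related genes, 1 point per gene, with black bars at list medians and dashed lines at a 1.5-fold change. Red points passed the unadjusted threshold (limma p under 0.05 and 1.5-fold). They are *Gsta1*, *Gsta3*, *Nqo2*, *Maob* and *Cybb* on the left and *Mt3* on the right, at 1.28.

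Glutathione transferases, which join glutathione to electrophiles, were lower in LBW for 16 of 18 genes with a row (23 listed). Their log2 fold changes ran from -1.01 to 0.41, and many were small. All 18 were read in the same 6 pups, so this count does not hold separate observations. Their median log2 fold change was -0.17, compared to -0.02 over all features. Of them, 2 were called, both lower (11.1%), against 4.27% of all features called and 1.89% called lower. *Gsta3* (NM_001009920), an alpha class transferase, was at 8.83, 8.87 and 8.89 in LBW 1, 2 and 3 and at 9.94, 9.45 and 10.23 in ABW 1, 2 and 3. The LBW pups were nearly equal while the ABW pups varied. *Gsta3* fell by 1.01 on the log2 scale (standard error 0.20, limma adjusted p = 0.239). *Gsta1* (NM_031509), of the same class, was at 10.91, 10.73 and 10.73 in LBW 1, 2 and 3 and at 11.81, 11.21 and 12.06 in ABW 1, 2 and 3. It fell by 0.90 (standard error 0.22, limma adjusted p = 0.269), and in both genes ABW 2 was the ABW pup nearest to the LBW values. Both calls held with any pup left out and by the methods' t-test. Alpha class transferases are close in sequence and probes of one may bind RNA of another, so these may not be separate observations. *Mgst1*, a membrane-bound transferase, was at 11.86, 12.07 and 10.91 in LBW and at 11.87, 12.65 and 12.79 in ABW pups, and its log2 fold change of -0.82 (standard error 0.37, limma adjusted p = 0.432) did not pass. *Mgst1* did pass without ABW 1 (-1.11) or LBW 2 (-1.05), with array weights (-0.78) and with an intensity-trended variance (-0.82), and was at -0.47 without LBW 3. The summed signal of the 18 genes ran from 42357 to 51256 in LBW and from 53968 to 61585 in ABW pups. The 11 adipocyte markers given above lay on average -0.32, -0.40 and -1.25 from the ABW mean in LBW 1, 2 and 3 and -0.56, 0.38 and 0.18 from it in ABW 1, 2 and 3 (log2 differences), so that the groups overlapped, and their part in the transferase signals was not tested.

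The enzymes that make and recycle glutathione showed no called gene among 14 with a row (22 listed), against 4.27% of all features called. Of them, 9 were higher and 5 lower in LBW with a median of 0.03. *Gss*, glutathione synthetase, had a log2 fold change of 0.26 (standard error 0.11, limma adjusted p = 0.428). *Ggt1*, which breaks down extracellular glutathione, was at 7.07 in LBW 1 and between 5.35 and 5.77 in the other pups, and *Ggt7* had a log2 fold change of 0.16 (standard error 0.19). The sign of both turned without 1 pup, to -0.12 for *Ggt1* without LBW 1 and to -0.04 for *Ggt7* without LBW 2. Among the thioredoxins, peroxiredoxins and methionine sulfoxide reductases, 0 of 18 with a row (23 listed) were called, against the same 4.27%, and the median was -0.05. *Msrb1* (NM_001044285), a selenium-dependent methionine sulfoxide reductase, was at 11.85, 11.82 and 11.73 in LBW and at 12.10, 12.21 and 12.18 in ABW pups. The groups were 0.253 apart with little spread within them. The difference of -0.37 on the log2 scale (standard error 0.08, limma adjusted p = 0.264) fell short of 1.5-fold. *Txnrd2*, the mitochondrial thioredoxin reductase, was at -0.24 (standard error 0.26) and *Msrb2* at -0.22 (standard error 0.24) on the same scale of differences. Single pups carried these values, since *Txnrd2* was at 0.01 without ABW 1 and -0.06 without LBW 3, and *Msrb2* at -0.07 without LBW 2 and -0.46 without LBW 3.

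**Figure D4:**
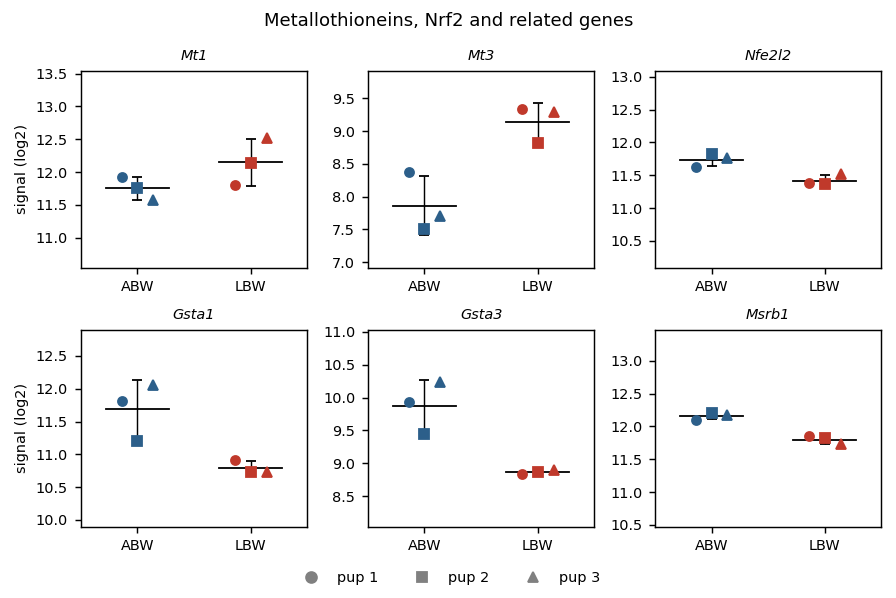
Signal (log2) of the metallothioneins *Mt1* and *Mt3*, of *Nfe2l2*, of the transferases *Gsta1* and *Gsta3* and of *Msrb1* in each of 3 ABW and 3 LBW pups. Lines are at group means and bars are 1 SD. Symbols give pup numbers, which were not used to pair pups. All panels span the same number of log2 units. The groups are apart for all but *Mt1*, by 0.448 for *Mt3* and by 0.117 for *Nfe2l2*.

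In the list of the Nrf2 pathway and heme degradation, 1 of 21 genes with a row (28 listed) was called, lower. This is 4.76%, against 4.27% of all features, and 15 genes were lower in LBW with a median of -0.08. The called gene was *Nqo2* (NM_001004214), a relative of *Nqo1*, at 9.13, 9.42 and 8.48 in LBW and at 9.37, 9.88 and 9.84 in ABW pups. LBW 2 lay above ABW 1, and the log2 fold change was -0.69 (standard error 0.27, limma adjusted p = 0.377). The call was lost without LBW 1, LBW 3, ABW 2 or ABW 3 (from -0.75 to -0.42) and by the methods' t-test. *Nfe2*, a factor of blood cell precursors, was at -0.65 (standard error 0.28) and *Ephx1*, an epoxide hydrolase, at -0.45 (standard error 0.16), both short of the threshold. *Nfe2* passed it without LBW 1 (-0.81) or ABW 3 (-0.94), with the replicate number as a block (-0.65) and with an intensity-trended variance (-0.65), while *Ephx1* was at -0.28 without LBW 3.

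Of 13 genes of metallothioneins and zinc or copper handling with a row (21 listed), *Mt3* was the 1 called. This is 7.69%, against 4.27% of all features, and the median was -0.02. *Slc30a1*, the zinc exporter of the cell membrane and itself a target of Mtf1, was at 11.06, 11.01 and 10.49 in LBW and at 10.14, 10.49 and 10.65 in ABW pups, and its log2 fold change of 0.43 (standard error 0.20, limma adjusted p = 0.448) did not pass, except without LBW 3 (0.61).

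Among 17 enzymes that produce superoxide, peroxide or nitric oxide (23 listed), 2 were called, both lower in LBW. This is 11.8%, against 4.27% of all features called, and the median was -0.08. *Maob* (NM_013198), a monoamine oxidase of the outer mitochondrial membrane, was at 7.49, 8.28 and 7.92 in LBW and at 8.35, 8.77 and 8.65 in ABW pups, with a log2 fold change of -0.69 (standard error 0.22, limma adjusted p = 0.315). *Cybb* (NM_023965), the catalytic subunit of the phagocyte NADPH oxidase, was at 10.03, 9.94 and 9.29 in LBW and at 10.02, 10.49 and 10.63 in ABW pups, with -0.63 (standard error 0.25, limma adjusted p = 0.379). LBW 1 lay just above ABW 1 for *Cybb*. *Maob* lost its call without LBW 1, ABW 2 or ABW 3 (from -0.66 to -0.49), *Cybb* without LBW 3, ABW 2 or ABW 3 (from -0.57 to -0.40), and both by the methods' t-test. With the replicate number as a block (-0.63) or with array weights (-0.58) *Cybb* also lost it. *Cybb* marks phagocytes, and the summed signal of 9 macrophage markers ran from 29071 to 32990 in LBW and from 27053 to 36256 in ABW pups. Of the 6 neutrophil markers given above, 3 were called higher in LBW pups, against 2.38% of all features, and 3 overlapped. The part of these cells in the *Cybb* difference was not tested. *Nos1* (NM_052799), the nitric oxide synthase of the muscle fibre membrane, was at 8.14, 8.04 and 8.21 in LBW and at 7.62, 7.52 and 7.53 in ABW pups. With a log2 fold change of 0.58 (standard error 0.09, limma adjusted p = 0.214) it lay just under the 1.5-fold criterion, and the groups were 0.420 apart. It passed without ABW 1 (0.61) or LBW 2 (0.62).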

How the data were processed

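NimbleGen rat arrays (1 per pup, 3 LBW and 3 ABW) measured muscle RNA with 5 probes per transcript. The authors normalized the arrays in R with Bioconductor and scripts of their own, the submitters' processing notes name RMA, and they deposited 1 log2 value per transcript and pup for 26419 rows. RMA includes a background correction of its own, whose settings are not given in the sources used here. Arrays carry no count depth, so that the number of arrays limits the precision. Rows were named through the RefSeq gene table of GRCr8 (9747 rows, 36.9%), and rows of a symbol were averaged. LBW and ABW were compared with limma 3.58.1 in R 4.3.3 over all 26299 features without further normalization. Checked on simulated data, limma called 96.5% of 200 features changed 2-fold and 1.07% of the unchanged ones. Exact permutation tests used scipy 1.17.1.

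The members and lists were chosen with earlier results of these data known. The genes named are the members, *Nfe2l2*, *Keap1*, *Mt1* and *Mt3*, in each list the called genes (at most 6) and otherwise the 3 that moved most, and the 3 genes most like the member that moved most. The settings varied were a replicate block, each pup left out, quantile normalization or median centring of the arrays, the brightest rows only (without the dimmest 25%), array weights, a robust or intensity-trended variance, single rows, arithmetic means, a fold change of 2 and the methods' t-test.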

Additional observations from a re-analysis of the deposited data

How the results depend on the processing

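The number of features past the unadjusted threshold, 1124, was 584 by the methods' t-test and 335 at a fold change of at least 2. Without any 1 pup it lay between 798 and 1546 (after adjustment 0, but 125 without LBW 2), and under the other alternatives between 1107 and 1336. *Gpx3* was the 1 member past the threshold. The number of members past it was 0 by the methods' t-test, 0 at a fold change of at least 2, and between 0 and 1 without any 1 pup (0 without ABW 1 or ABW 3). Its log2 fold change stayed between 0.70 and 1.22. No member passed after adjustment by limma or by the methods' t-test, and the median of the members stayed between -0.02 and 0.06. Of 153 member values under 17 alternatives, 141 kept direction and call, 4 lost the call (all *Gpx3*) and 8 changed sign, none of them past the threshold. Without any 1 pup *Sod2* lay between -0.06 and 0.12, *Sod3* between -0.04 and 0.19, *Nqo1* between -0.03 and 0.14 and *Hmox1* between -0.01 and 0.09. The cause of these shifts was not tested. With the replicate number as a block, 1230 features and 1 member (*Gpx3*) passed. Deviations of same-numbered pups correlated at 0.087, 0.104 and 0.055. These values cannot show whether same-numbered pups share a litter or a batch, which is not given. How far dim signals lie above background is unknown.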

Other observations

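Several proteins of this system carry selenocysteine, and 10 genes for such proteins had a row in the lists above, a grouping made after the values were seen. Of these 10, 1 was called (*Gpx3*, higher), against 4.27% of all features called and 2.38% called higher. In LBW pups 3 were higher and 7 lower, and the median log2 fold change was -0.05, compared to -0.02 over all features. *Selenop*, the selenium carrier of plasma, was at 14.10, 14.11 and 14.05 in LBW and at 14.09, 14.21 and 14.28 in ABW pups, with a log2 fold change of -0.11 (95% interval from -0.32 to 0.10). *Gpx4*, which reduces lipid peroxides, had 0.04 (95% interval from -0.17 to 0.25).

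Of the 101 genes in the lists above, 3 lay higher and 11 lower in LBW pups without overlap between the groups (13.9%, compared to 17.4% of all features). *Gstp1*, the pi class transferase, *Mafg*, a small Maf partner of Nrf2, and *Nox4*, an NADPH oxidase, are among those lower and were chosen after their values were seen. *Gstp1* was at 12.89, 13.11 and 12.90 in LBW and at 13.30, 13.30 and 13.43 in ABW pups (log2 fold change -0.38, 95% interval from -0.62 to -0.13). *Mafg* was at 8.05, 8.45 and 8.23 in LBW and at 8.47, 8.62 and 8.69 in ABW pups (log2 fold change -0.35, 95% interval from -0.66 to -0.05). *Nox4* was at 9.80, 9.69 and 9.65 in LBW and at 10.16, 9.83 and 10.02 in ABW pups (log2 fold change -0.29, 95% interval from -0.56 to -0.02). All 3 genes fell short of the 1.5-fold criterion.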
